A study of Mus musculus with 768 samples.

Results

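Basement membrane genes are described here across single fibroblasts of mammary tumors. They are 34 genes, chosen by symbol, out of the 24490 endogenous genes in the deposited tables: 6 type IV collagen chains, the collagens XV and XVIII, 10 laminin chains, 2 nidogens, perlecan (*Hspg2*), agrin, and 12 genes for proteins that bind, crosslink or sit beside these. All 34 had a read in at least 1 of the wells used. The cells came from 2 tumors of 14-week-old FVB/N-Tg(MMTVPyVT)634Mul/J mice, in which the mouse mammary tumor virus promoter drives the polyoma middle T oncogene in mammary epithelium. They were sorted as negative for EpCAM, CD45, CD31 and NG2, and no sample of unsorted stroma or of healthy gland is among the wells. Sequencing was by Smart-seq2, which reads full-length cDNA from 1 cell per well. Each tumor filled 1 plate, and effects of tumor and plate cannot be told apart. Cells of a tumor are not replicates, which leaves n = 2 tumors. Whether the tumors came from different mice is not given in the sources used here. The question addressed is whether classes of tumor fibroblasts transcribe different sets of matrix genes.

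Of the 768 wells, 727 had at least 10000 reads outside the ERCC spike-ins and were used. Each of these cells was placed by 3 panels of 5 markers that hold none of the 34 genes. Vascular cells were high for *Rgs5*, *Higd1b*, *Kcnj8*, *Notch3* and *Abcc9*, matrix cells for *Dcn*, *Lum*, *Mfap5*, *Serpinf1* and *Pdgfra*, and Trf/Mia-high cells for *Trf*, *Mia*, *Scrg1*, *Sox10* and *Sox9*. The 500 vascular cells made up 70.5% and 66.9% of the cells in tumors 1 and 2, and there were 88 and 86 matrix cells and 8 and 17 Trf/Mia-high cells, with 14 cells of each tumor in no class. In 697 cells the leading panel was ahead of the next by at least 2 on the log2 scale, in 5 cells by 1 to 1.5, and 22 cells fell under the limit of 1. Markers kept out of the panels followed the names in part. Of 5 held-out vascular markers 3 were higher in vascular than in matrix cells and 5 higher than in Trf/Mia-high cells. Of 5 held-out matrix markers 5 were higher in matrix than in vascular cells and 3 higher than in Trf/Mia-high cells. Of 4 tested held-out markers of Trf/Mia-high cells 3 were higher there than in vascular cells and 2 higher than in matrix cells, and the untested *Wnt6* had no read in them. Counts summed over the cells of a class and tumor gave 6 libraries of 1927938 to 54962446 reads.

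Basement membranes are thin sheets of matrix beneath epithelia and endothelia and around muscle, fat, nerve and the mural cells of blood vessels. Laminin trimers, made of an alpha, a beta and a gamma chain, polymerize at the cell surface and are held there by integrins and dystroglycan. A second network of type IV collagen is joined to the laminins through nidogens and perlecan and is crosslinked by peroxidasin. Collagens XV and XVIII sit at the outer face of the sheet, and the noncollagenous end of collagen XVIII can be released as endostatin, an inhibitor of angiogenesis.

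The type IV collagen genes lie head to head in the genome, and 2 of these gene pairs are shown here. *Col4a1* (GRCm38, the assembly of mm10, chromosome 8, 11198423 to 11312889) and *Col4a2* (chromosome 8, 11312805 to 11449287) overlap at their 5′ ends, and *Col4a6* (chromosome X, 141165403 to 141474095) and *Col4a5* (chromosome X, 141475370 to 141689236) point away from each other across a short gap. The promoter windows below, from RefSeq, run from 250 bases before to 50 after a transcript start. In each pair shown the 2 genes had the same class at the top. So did *Col4a3* and *Col4a4*, which are not shown because no window was found for *Col4a3*. Capitals mark every CCAAT box and every GC box, spelled GGGCGG, read on either strand. No match overlapped another.
*Col4a1*, chr8:11312777-11313076, minus strand: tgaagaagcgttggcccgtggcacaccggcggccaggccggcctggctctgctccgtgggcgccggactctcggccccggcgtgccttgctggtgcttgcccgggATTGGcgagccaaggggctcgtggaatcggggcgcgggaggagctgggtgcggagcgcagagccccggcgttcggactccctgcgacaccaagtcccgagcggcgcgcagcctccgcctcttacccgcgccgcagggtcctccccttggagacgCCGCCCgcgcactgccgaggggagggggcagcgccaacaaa
*Col4a2*, chr8:11312555-11312854, plus strand: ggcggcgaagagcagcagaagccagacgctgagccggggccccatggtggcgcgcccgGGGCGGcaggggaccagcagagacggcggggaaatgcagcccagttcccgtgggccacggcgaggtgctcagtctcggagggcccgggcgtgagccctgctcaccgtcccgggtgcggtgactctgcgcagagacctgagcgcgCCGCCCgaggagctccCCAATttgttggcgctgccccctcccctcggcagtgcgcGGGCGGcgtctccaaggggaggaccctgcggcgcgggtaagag
*Col4a5*, chrX:141475169-141475468, plus strand: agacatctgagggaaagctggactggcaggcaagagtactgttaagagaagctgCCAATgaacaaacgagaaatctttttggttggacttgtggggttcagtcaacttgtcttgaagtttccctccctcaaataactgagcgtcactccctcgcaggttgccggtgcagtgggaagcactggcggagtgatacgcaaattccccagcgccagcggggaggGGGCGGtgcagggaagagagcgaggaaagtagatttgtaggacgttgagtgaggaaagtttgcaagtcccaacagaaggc
*Col4a6*, chrX:141474027-141474326, minus strand: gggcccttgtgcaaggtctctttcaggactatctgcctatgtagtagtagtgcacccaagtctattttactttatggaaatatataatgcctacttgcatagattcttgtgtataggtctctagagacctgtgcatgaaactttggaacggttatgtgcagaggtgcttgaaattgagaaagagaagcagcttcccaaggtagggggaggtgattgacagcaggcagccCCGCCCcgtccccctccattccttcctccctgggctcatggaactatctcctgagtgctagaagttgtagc
The *Col4a1* and *Col4a2* windows share 78 bases, with starts 21 bases apart, while the starts of *Col4a6* and *Col4a5* were 1343 bases apart. The GC content was 74% and 73.7% in the *Col4a1* and *Col4a2* windows but 52.7% and 48.3% in those of *Col4a5* and *Col4a6*, against a median of 52.7% over all 32851 windows. CCAAT occurred in 37.4% of all windows and GGGCGG in 35.7%. TATAAA, found in 13.6% of all windows on either strand, was in none of the 4 shown. Windows were found for 24 of the 34 genes. Smart-seq2 reads carry no strand, so reads from the overlap of *Col4a1* and *Col4a2*, and from that of *Col4a3* and *Col4a4*, cannot be told apart.

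The classes differed in which basement membrane genes they expressed rather than in one direction for all of them. By mean level, 7 of the 34 genes were highest in vascular cells, 11 in matrix cells and 16 in Trf/Mia-high cells, and by the median over cells 8, 9 and 10, the rest having a median of 0 in every class. Of the 16, *Col4a3*, *Col4a4*, *Lama3*, *Lamb3*, *Fras1* and *Frem2* had reads in 0 to 4 Trf/Mia-high cells of a tumor. A level is the mean over cells of log2(RPKM + 1), where RPKM are reads scaled to the length of the gene model and to the depth of the cell. In vascular cells the 34 genes took 1.68% and 1.84% of all summed reads in tumors 1 and 2. The shares were 1.05% and 0.982% in matrix cells and 0.499% and 0.674% in Trf/Mia-high cells. In CPM (depth-scaled counts), *Col4a1* was at 6500 and 7458 in vascular cells and at 2236 and 1781 in matrix cells. *Col4a2* was at 3224 and 3805 and at 1271 and 1136. The vascular excess over matrix cells lay almost entirely in these collagen genes, and neither passed the test between those classes described below. That excess does not show higher expression across the 34 genes. The median cell had reads for 17 of the genes in vascular cells of each tumor, for 18 in matrix cells, and for 16 and 20 in Trf/Mia-high cells.

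**Figure D1:**
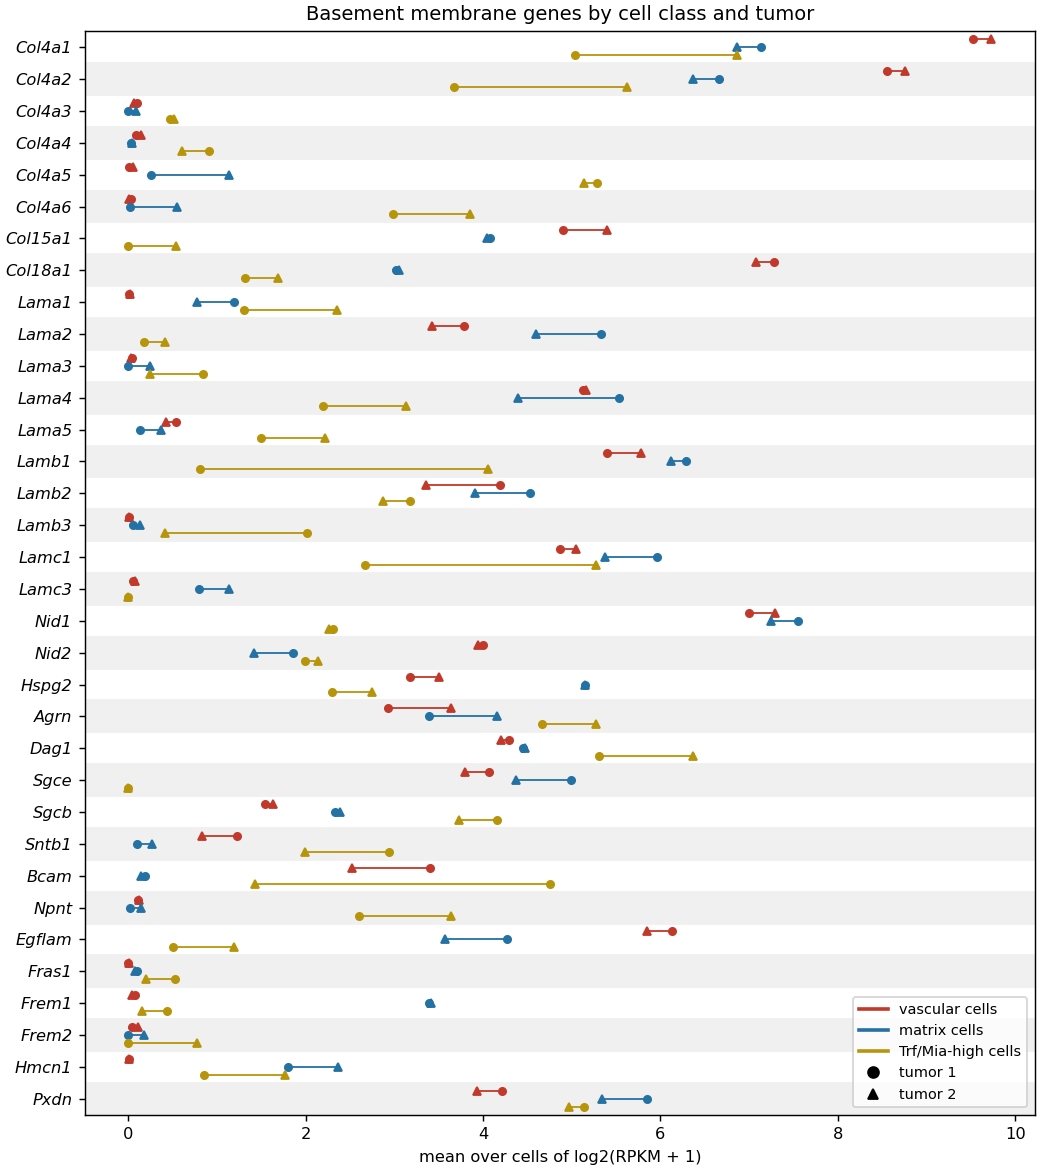
Level of each of the 34 genes, as the mean over cells of log2(RPKM + 1), in vascular, matrix and Trf/Mia-high cells, with a circle for tumor 1, a triangle for tumor 2 and a line joining them. *Col4a1* is at 9.53 and 9.73 in vascular cells, above every other gene, and the *Lamb1*, *Lamc1* and *Bcam* lines of Trf/Mia-high cells are long because the tumors differed there.

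In the comparison of vascular with matrix cells, 28 of the 34 genes passed the filter (a mean RPKM of at least 1 over all cells) and 9 passed the quasi-likelihood test of edgeR at an adjusted p of 0.05, as did 5.17% of all 11715 genes tested. The counts were summed per class and tumor. Higher in vascular cells were *Col18a1*, *Nid2* and *Bcam*, where 1.74% of all genes passed in that direction, and lower were *Lama1*, *Lama2*, *Lamc3*, *Hspg2*, *Frem1* and *Hmcn1*, where 3.43% did. The 28 genes had a median log2 fold change of -0.31, against 0.02 over all genes tested. Which genes passed rested on the libraries in the fit. With the tumor as a block 5 of the 9 remained (*Col18a1*, *Nid2*, *Hspg2*, *Frem1* and *Hmcn1*) and 2.48% of all genes passed. Leaving out any vascular or matrix library left only *Hmcn1*, with 0.418% to 0.657% of all genes passing. Without the Trf/Mia-high libraries in the fit, all 9 remained and *Col4a1*, *Col4a2*, *Egflam* and *Pxdn* passed as well, with 15.5% of all genes. Without the cells that had reads for 2 epithelial markers, 3 of the 9 remained (*Col18a1*, *Bcam* and *Hmcn1*), with 1.62% of all genes passing. That fit left out 3 and 7 vascular and 4 and 6 matrix cells of tumors 1 and 2, but 6 of the 8 Trf/Mia-high cells of tumor 1. The classes share 1 estimate of the spread, and what the lost calls owe to the small library was not tested.

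Against Trf/Mia-high cells, 14 of the 28 tested genes passed in the vascular comparison, 11 of them higher in vascular cells, where 12.5% of all genes passed, 7.65% in that direction. In the matrix comparison 12 passed, 10 of them higher in matrix cells, where 10.5% of all genes passed, 7.67% in that direction. Higher in vascular than in Trf/Mia-high cells were *Col4a1*, *Col4a2*, *Col15a1*, *Col18a1*, *Lama2*, *Lamc3*, *Nid1*, *Nid2*, *Hspg2*, *Sgce* and *Egflam*, and lower were *Col4a5*, *Lama1* and *Hmcn1*, where 4.87% of all genes passed as lower. Higher in matrix than in Trf/Mia-high cells were *Col4a2*, *Col15a1*, *Col18a1*, *Lama2*, *Lamc3*, *Nid1*, *Hspg2*, *Sgce*, *Egflam* and *Frem1*, and lower were *Lama5* and *Bcam*, where 2.85% of all genes passed as lower. The median log2 fold change of the 28 genes that passed the filter was 0.67 and 1.20, against 0.12 and 0.13 over all genes. With no filter, over all 34, it was -0.76 and 0.14, against 0.23 and 0.12 over all genes. The 2 comparisons share the Trf/Mia-high libraries. The *Lamc3* call between vascular and Trf/Mia-high cells compares reads in 4 and 7 vascular cells (1.52% and 2.95%) with none, and was lost in 7 of 19 alternative fits. With 3 reads per library as the limit it allows differences as small as 1.59-fold and 3.55-fold in tumors 1 and 2, and the 0 of 8 and 0 of 17 Trf/Mia-high cells allow shares of up to 36.9% and 19.5% (exact binomial 95% interval), above those of vascular cells. With the tumor as a block 11 of the 14 and 8 of the 12 remained, without *Egflam*, *Lama1* and *Lamc3* in the first and *Bcam*, *Col4a2*, *Egflam* and *Lama5* in the second, and 7.65% and 5.92% of all genes passed. Of the 25 Trf/Mia-high cells, 10 had reads for at least 2 of 7 epithelial markers, among them 6 of the 8 cells of tumor 1. Without such cells 10 of the 14 and 8 of the 12 remained, with 7.24% and 6.02% of all genes passing. Leaving out 1 library at a time gave 8 to 23 of the basement membrane genes in the vascular comparison, with 3.07% to 39.3% of all genes passing, and 5 to 20 in the matrix comparison, with 1.93% to 36.9%. In the vascular comparison the low value came without either vascular library and the high value without that of Trf/Mia-high cells of tumor 2, and in the matrix comparison they came without the matrix library of tumor 1 and again without that of Trf/Mia-high cells of tumor 2. Whichever library was left out, *Col4a2*, *Col15a1*, *Col18a1*, *Lama2*, *Nid1*, *Sgce* and *Hmcn1* still passed between vascular and Trf/Mia-high cells, and *Lama2*, *Nid1*, *Hspg2* and *Sgce* between matrix and Trf/Mia-high cells, while every other call in these comparisons was lost without at least 1 vascular or matrix library.

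**Figure D2:**
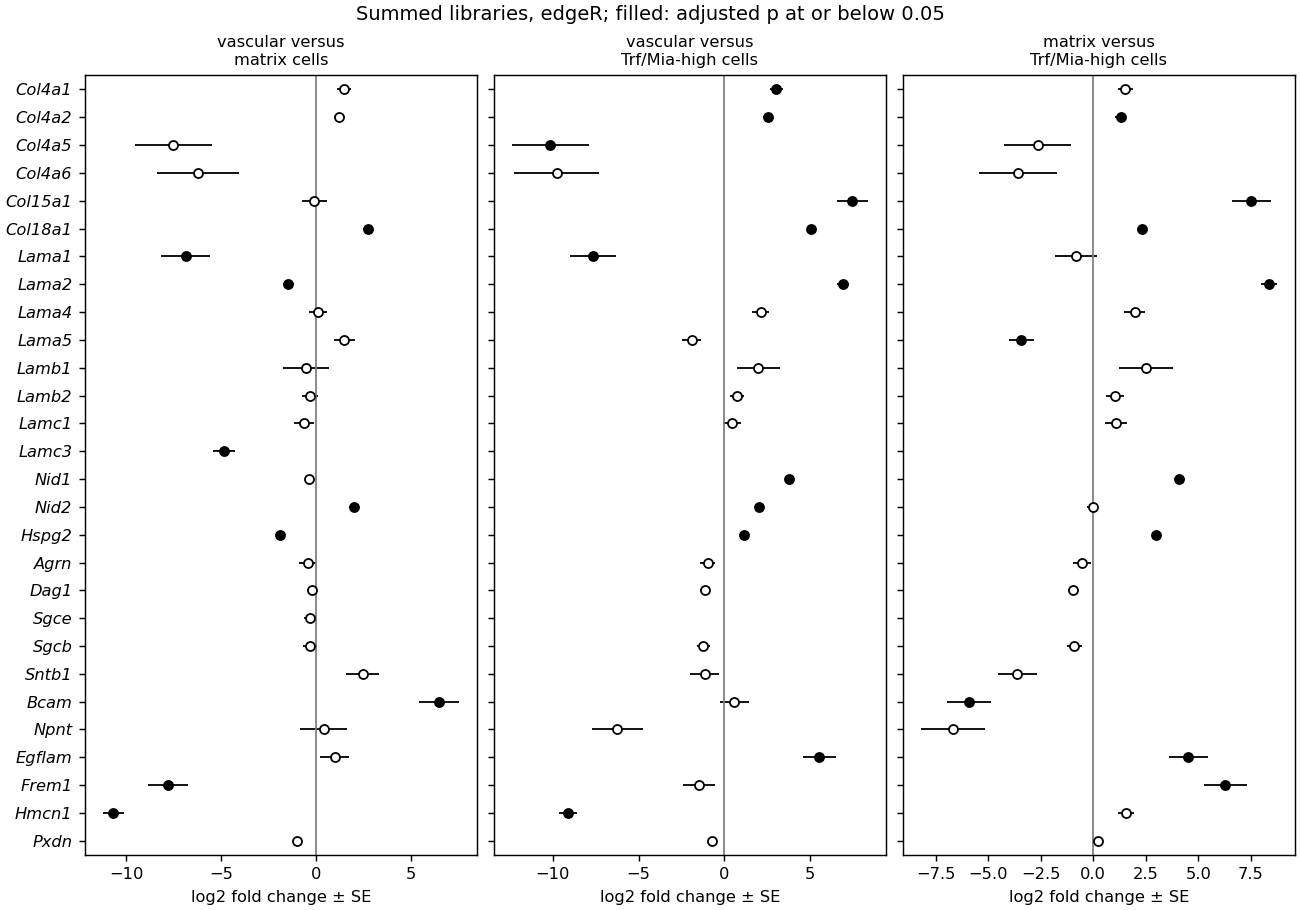
Log2 fold change with its standard error (edgeR, 6 summed libraries) of the 28 tested genes in the 3 comparisons, each named above its panel with positive values higher in the class named first. Filled points passed an adjusted p of 0.05. *Sgce* and *Lamc3* are left out of the panels with Trf/Mia-high cells, where they had 0 reads.

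*Col4a1* and *Col4a2*, the chains of the type IV collagen found in most basement membranes, had the highest levels in vascular cells. *Col4a1* had a level of 9.53 in tumor 1 and 9.73 in tumor 2 in vascular cells, 7.13 and 6.87 in matrix cells, and 5.04 and 6.87 in Trf/Mia-high cells. *Col4a2* was at 8.56 and 8.76, at 6.66 and 6.36, and at 3.68 and 5.62 in the same order. The vascular values lay above those of both other classes in each tumor, while matrix and Trf/Mia-high cells of tumor 2 were level for *Col4a1*. In the summed counts *Col4a1* was higher in vascular than in Trf/Mia-high cells by a log2 fold change of 3.01 ± 0.38 (SE, edgeR adjusted p = 0.00873), and *Col4a2* by 2.55 ± 0.29 (edgeR adjusted p = 0.00621), and both calls were lost when scaled to the ERCC spike-ins. Against matrix cells the log2 fold changes of 1.49 ± 0.36 for *Col4a1* and 1.24 ± 0.28 for *Col4a2* did not pass with all 6 libraries (edgeR adjusted p = 0.0873 and 0.0722). The *Col4a2* difference between matrix and Trf/Mia-high cells, 1.30 ± 0.28, passed narrowly (edgeR adjusted p = 0.0441) and was lost in 9 of 19 alternative fits, the block by tumor among them.

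Vascular cells were more alike in *Col4a1* than matrix cells. Each vascular cell had *Col4a1* reads, and the middle 50% of cells lay between 9.15 and 10.04 in tumor 1 and between 9.40 and 10.26 in tumor 2 on the log2(RPKM + 1) scale. In matrix cells 87 of 88 and 85 of 86 had a read, but the SD over cells was 2.33 and 2.29, against 0.85 and 0.78 in vascular cells. The 2 genes kept a narrow ratio, with mean *Col4a1* RPKM 1.96 and 1.92 times that of *Col4a2* in vascular cells, 1.74 and 1.54 times in matrix cells, and 1.29 and 1.74 times in Trf/Mia-high cells.

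**Figure D3:**
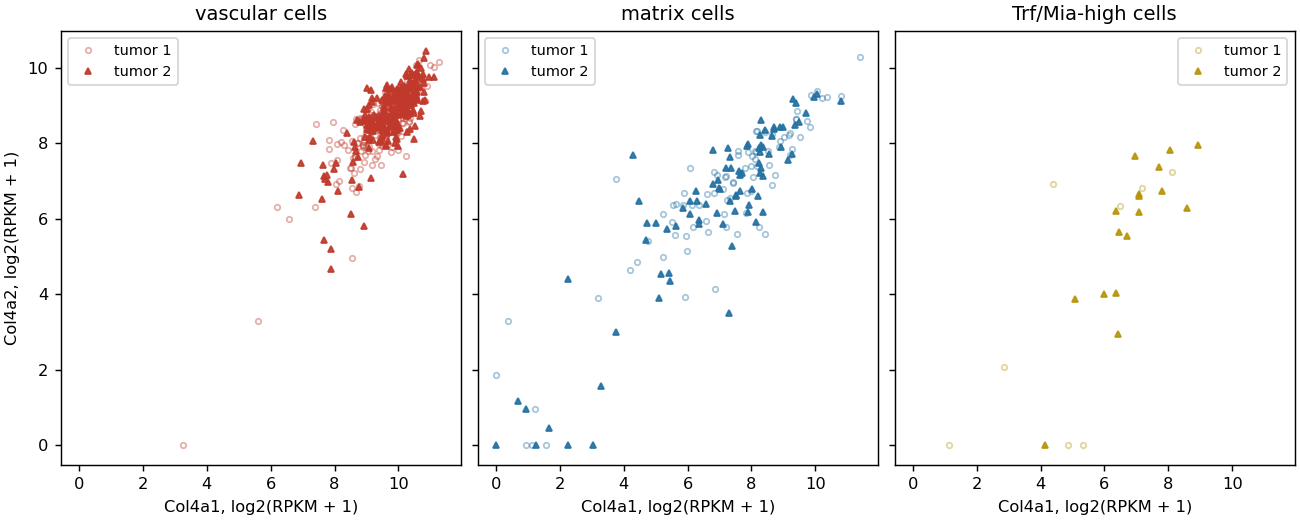
*Col4a1* against *Col4a2* in each cell, as log2(RPKM + 1), with open circles for tumor 1 and filled triangles for tumor 2. Matrix cells spread along the diagonal from 0 to a *Col4a1* value of 11.4, while most vascular cells gather at the upper end.

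*Col4a5* and *Col4a6*, chains of the type IV collagen trimers found under some epithelia and around smooth muscle, had their highest levels in Trf/Mia-high cells. *Col4a5* had a level of 5.29 and 5.14 there, 0.26 and 1.14 in matrix cells, and 0.00 and 0.05 in vascular cells. Reads were found in 7 of 8 and 15 of 17 Trf/Mia-high cells, in 11 of 88 and 19 of 86 matrix cells, and in 1 and 6 of the vascular cells. *Col4a6* had a level of 2.98 and 3.85 in Trf/Mia-high cells, 0.02 and 0.55 in matrix cells, and 0.03 and 0.01 in vascular cells, and its reads came in 5 of 8 and 15 of 17 of these cells, each of which also had *Col4a5* reads. In both tumors the mean of Trf/Mia-high cells lay above those of the other classes for both genes. In the summed counts *Col4a5* was lower in vascular than in Trf/Mia-high cells by a log2 fold change of -10.16 ± 2.24 (edgeR adjusted p = 0.0425), resting on 1 and 36 reads in the vascular libraries, and the call was lost without the cells with 2 epithelial markers or without either vascular library. *Col4a6* stood at -9.78 ± 2.47 (edgeR adjusted p = 0.0600). Neither differed from matrix cells by the test (edgeR adjusted p = 0.344 and 0.280), where the 19 matrix cells of tumor 2 with a *Col4a5* read held 2223 reads of it.

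Matrix cells with a *Col4a5* read had a median Trf/Mia panel score of 0.41 in tumor 1 and 1.30 in tumor 2, and those without one 0.00 and 0.26. *Col4a3* and *Col4a4*, the chains of the kidney and lung type IV collagen, were under the filter and had reads in at most 6.84% of vascular cells, in at most 2.33% of matrix cells and in 1 to 4 of the Trf/Mia-high cells of a tumor. By mean RPKM the type IV chains of vascular cells were 66.1% and 65.8% *Col4a1* and 33.8% and 34.2% *Col4a2*. In Trf/Mia-high cells *Col4a5* made up 31.4% and 18.9% and *Col4a6* 10.3% and 7.68%.

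**Figure D4:**
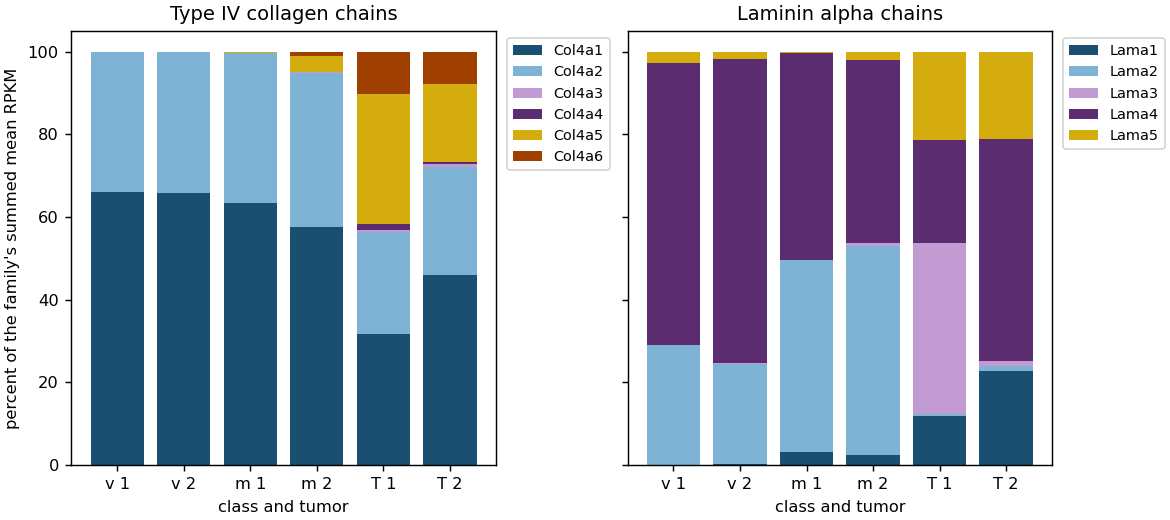
Share of each chain in its family's summed mean RPKM, in percent, for the type IV collagen chains and the laminin alpha chains in vascular (v), matrix (m) and Trf/Mia-high (T) cells of tumors 1 and 2. *Col4a5* and *Col4a6* take a visible share only in Trf/Mia-high cells and in matrix cells of tumor 2, and *Lama2* is nearly missing from Trf/Mia-high cells.

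The multiplexin collagens separated the classes in different ways. *Col18a1*, which encodes the precursor of endostatin, had a level of 7.28 and 7.08 in vascular cells, 3.02 and 3.05 in matrix cells, and 1.31 and 1.69 in Trf/Mia-high cells. These values fell in the same order in each tumor with no overlap. In the summed counts the log2 fold change was 2.74 ± 0.24 against matrix cells (edgeR adjusted p = 0.00595) and 5.07 ± 0.27 against Trf/Mia-high cells (edgeR adjusted p = 0.000974), and matrix cells exceeded Trf/Mia-high cells by 2.33 ± 0.24 (edgeR adjusted p = 0.00582). *Col15a1* had a level of 4.90 and 5.40 in vascular cells and 4.08 and 4.04 in matrix cells, and its summed counts did not differ between them (log2 fold change -0.06 ± 0.64, edgeR adjusted p = 0.987). In Trf/Mia-high cells *Col15a1* had 0 reads in tumor 1 and 13 reads in tumor 2, and it was lower there than in vascular cells (edgeR adjusted p = 0.00798) and matrix cells (edgeR adjusted p = 0.00981). Mean *Col18a1* RPKM was 4.50 and 2.98 times that of *Col15a1* in vascular cells and 0.501 and 0.618 times in matrix cells.

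**Figure D5:**
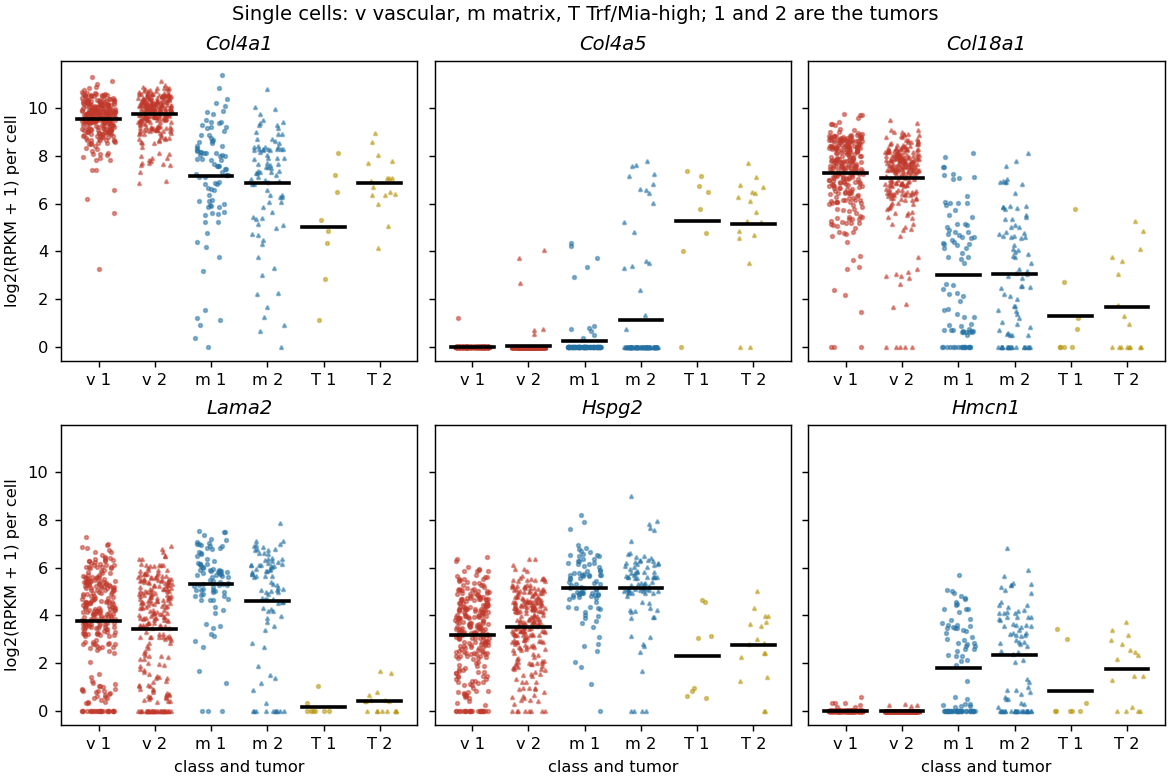
Log2(RPKM + 1) in each cell for 6 genes, in vascular (v), matrix (m) and Trf/Mia-high (T) cells of tumors 1 and 2, with a point for each cell and a black line at the mean. By the mean, *Col4a1* and *Col18a1* are highest in vascular cells, *Lama2*, *Hspg2* and *Hmcn1* in matrix cells and *Col4a5* in Trf/Mia-high cells, in both tumors.

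Among the laminin alpha chains, *Lama2* and *Lama4* were shared by vascular and matrix cells, and *Lama1* was read almost only outside vascular cells. *Lama2*, the alpha chain of muscle and peripheral nerve laminin, had a level of 5.33 and 4.60 in matrix cells, 3.78 and 3.43 in vascular cells, and 0.17 and 0.41 in Trf/Mia-high cells. It was lower in vascular than in matrix cells by a log2 fold change of -1.43 ± 0.27 (edgeR adjusted p = 0.0453), a call lost with the tumor as a block. It was higher in vascular and in matrix cells than in Trf/Mia-high cells, by 6.92 ± 0.36 (edgeR adjusted p = 0.000974) and 8.35 ± 0.38 (edgeR adjusted p = 0.00118), with 3 and 10 reads in the Trf/Mia-high libraries. These last 2 calls held in each of 19 alternative fits.

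*Lama4*, the alpha chain of vascular and mesenchymal laminins, had a level of 5.12 and 5.16 in vascular cells, 5.53 and 4.40 in matrix cells, and 2.20 and 3.13 in Trf/Mia-high cells. By level the tumors disagreed on whether vascular or matrix cells were higher, in the summed counts vascular cells were higher in both (log2 ratios 0.14 and 0.81), and the difference did not pass (log2 fold change 0.14 ± 0.48, edgeR adjusted p = 0.965). The ratio of mean *Lama4* to *Lama2* RPKM was 2.36 and 3.03 in vascular cells and 1.08 and 0.875 in matrix cells. In Trf/Mia-high cells it was 49.3 and 47.4, over *Lama2* means near the floor (0.167 and 0.434 RPKM, from 3 and 10 reads). *Lama1*, an alpha chain of embryonic basement membranes, had reads in 34 of 88 and 26 of 86 matrix cells, in 3 of 8 and 13 of 17 Trf/Mia-high cells, and in 2 and 3 of the vascular cells, with levels of 1.19 and 0.77, of 1.31 and 2.35, and of 0.00 and 0.02. It was lower in vascular than in matrix cells (log2 fold change -6.85 ± 1.30, edgeR adjusted p = 0.0477) and than in Trf/Mia-high cells (-7.67 ± 1.35, edgeR adjusted p = 0.0234), and both calls were lost with the tumor as a block. *Lama5*, common in epithelial and endothelial basement membranes, was at 1.49 and 2.22 in Trf/Mia-high cells, 0.54 and 0.43 in vascular cells, and 0.13 and 0.37 in matrix cells. Its reads came in 17.9% and 15.6% of vascular and 4.55% and 11.6% of matrix cells, and matrix cells stood against Trf/Mia-high cells at -3.42 ± 0.61 (edgeR adjusted p = 0.0270), also lost with the block. *Lama3*, the alpha chain of the laminin under stratified epithelia, was under the filter, with reads in 6 and 2 vascular cells, 0 of 88 and 7 of 86 matrix cells, and 1 of 8 and 2 of 17 Trf/Mia-high cells.

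The beta and gamma chains that complete these trimers differed little between vascular and matrix cells. *Lamb1* had a level of 5.40 and 5.78 in vascular cells, 6.29 and 6.12 in matrix cells, and 0.81 and 4.06 in Trf/Mia-high cells. *Lamc1*, the most common gamma chain, was at 4.87 and 5.04, at 5.97 and 5.37, and at 2.67 and 5.27. *Lamb2* was at 4.19 and 3.35 in vascular cells, 4.53 and 3.91 in matrix cells, and 3.17 and 2.87 in Trf/Mia-high cells. For each, matrix cells were higher than vascular cells in both tumors by level, though for *Lamb2* the summed counts had vascular cells higher in tumor 1 (log2 ratios 0.21 and -0.31). None of the 3 passed in any comparison (edgeR adjusted p = 0.183 at the lowest), and the 2 tumors were far apart in Trf/Mia-high cells for *Lamb1* and *Lamc1*. *Lamc3*, a gamma chain outside the common trimers, was found in 16 of 88 and 22 of 86 matrix cells and in 4 and 7 vascular cells, at levels of 0.80 and 1.14 and of 0.06 and 0.07, and was lower in vascular cells by a log2 fold change of -4.83 ± 0.59 (edgeR adjusted p = 0.0260), lost with the block. No *Lamc3* read was seen in the Trf/Mia-high cells, 0 of 8 and 0 of 17, where the upper limits of 36.9% and 19.5% lie above the 18.2% of matrix cells in tumor 1 and below the 25.6% in tumor 2. *Lamb3*, a chain of the same epithelial laminin as *Lama3*, was under the filter and had reads in 3 of 8 and 3 of 17 Trf/Mia-high cells and in 1 to 4 cells of each other class and tumor.

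The nidogens, which tie laminin to type IV collagen, were split. *Nid1* had a level of 7.0 and 7.29 in vascular cells and 7.55 and 7.24 in matrix cells, a difference that did not pass (log2 fold change -0.33 ± 0.22, edgeR adjusted p = 0.588), and 2.31 and 2.26 in Trf/Mia-high cells. It was higher in vascular than in Trf/Mia-high cells by 3.77 ± 0.24 (edgeR adjusted p = 0.00159) and in matrix than in Trf/Mia-high cells by 4.10 ± 0.25 (edgeR adjusted p = 0.00194), and in each of 19 alternative fits as well. *Nid2* had a level of 4.0 and 3.94 in vascular cells, 1.86 and 1.42 in matrix cells, and 1.99 and 2.14 in Trf/Mia-high cells. Reads of *Nid2* were in 74.5% and 74.7% of vascular cells and in 46.6% and 34.9% of matrix cells. Among the cells with at least 50000 reads, thinned to that number, the shares were 71.5% and 73.7% against 38.3% and 29.3%. Its summed counts were higher in vascular cells than in matrix cells by 2.04 ± 0.27 (edgeR adjusted p = 0.0184) and than in Trf/Mia-high cells by 2.02 ± 0.27 (edgeR adjusted p = 0.0104). *Nid1* exceeded *Nid2* in mean RPKM 3.64 and 4.59 times in vascular cells, 21.9 and 17.5 times in matrix cells, and 1.32 times in Trf/Mia-high cells of each tumor.

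Of the heparan sulphate proteoglycans, perlecan was read in all classes with its highest level in matrix cells, and agrin passed in no comparison. *Hspg2* had a level of 5.15 and 5.14 in matrix cells, 3.18 and 3.51 in vascular cells, and 2.29 and 2.74 in Trf/Mia-high cells, in the same order in each tumor. Reads came in 91.6% and 96.6% of vascular cells and in 8 of 8 and 15 of 17 Trf/Mia-high cells. The log2 fold change was -1.88 ± 0.21 between vascular and matrix cells (edgeR adjusted p = 0.0124), 3.00 ± 0.22 between matrix and Trf/Mia-high cells (edgeR adjusted p = 0.00270), and 1.12 ± 0.21 between vascular and Trf/Mia-high cells (edgeR adjusted p = 0.0266). All 3 calls were lost without the cells with 2 epithelial markers, where the log2 fold changes were -1.87 ± 0.98, 3.76 ± 1.07 and 1.89 ± 0.99 (edgeR adjusted p = 0.605, 0.110 and 0.334). That fit left out 6 of the 8 Trf/Mia-high cells of tumor 1. Between vascular and matrix cells the SE rose in it while the fold change stayed nearly the same. *Agrn*, which also clusters receptors at the neuromuscular junction, was highest in Trf/Mia-high cells, at 4.67 and 5.27 against 3.39 and 4.16 in matrix cells and 2.93 and 3.64 in vascular cells (edgeR adjusted p = 0.218 at the lowest).

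On the cell side, the dystroglycan complex links laminin to the cytoskeleton. *Dag1*, its laminin receptor, had a level of 5.30 and 6.37 in Trf/Mia-high cells, 4.45 and 4.48 in matrix cells, and 4.30 and 4.20 in vascular cells, and missed the threshold against vascular cells (log2 fold change -1.13 ± 0.27, edgeR adjusted p = 0.0539). *Sgce*, epsilon-sarcoglycan, had reads in 73.8% and 67.9% of vascular cells and in 77 of 88 and 71 of 86 matrix cells, but in 0 of 8 and 0 of 17 Trf/Mia-high cells. With 3 reads per library as the limit, its summed counts, scaled to library size, were higher by at least 6.37 and 7.15 on the log2 scale in vascular cells and by at least 6.53 and 6.96 in matrix cells of tumors 1 and 2 (edgeR adjusted p = 0.00217 and 0.00261). Both calls held in each of 19 alternative fits. *Sgcb*, beta-sarcoglycan, had a level of 4.16 and 3.72 in Trf/Mia-high cells, 2.33 and 2.39 in matrix cells, and 1.54 and 1.63 in vascular cells. *Sntb1*, a syntrophin, was at 2.94 and 1.99, at 0.10 and 0.27, and at 1.23 and 0.83 in the same order, and neither gene passed in any comparison (edgeR adjusted p = 0.0685 at the lowest).

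*Bcam*, a cell surface receptor for laminin alpha 5 chains, was present in vascular and nearly missing from matrix cells. Its level was 3.40 and 2.52 in vascular cells, 0.19 and 0.14 in matrix cells, and 4.75 and 1.43 in Trf/Mia-high cells. Reads came in 67.3% and 54% of vascular cells and in 10 of 88 and 5 of 86 matrix cells. The log2 fold change was 6.49 ± 1.06 between vascular and matrix cells (edgeR adjusted p = 0.0332) and -5.91 ± 1.04 between matrix and Trf/Mia-high cells (edgeR adjusted p = 0.0265), and both calls were lost with the tumor as a block. *Egflam*, which encodes the dystroglycan ligand pikachurin, was at 6.14 and 5.85 in vascular cells, 4.27 and 3.57 in matrix cells, and 0.50 and 1.20 in Trf/Mia-high cells. It was higher than in Trf/Mia-high cells by 5.54 ± 0.95 in vascular cells (edgeR adjusted p = 0.0218) and by 4.53 ± 0.91 in matrix cells (edgeR adjusted p = 0.0380), both lost with the block. *Npnt*, nephronectin, an integrin ligand of epithelial basement membranes, was at 2.60 and 3.64 in Trf/Mia-high cells, 0.02 and 0.14 in matrix cells, and 0.12 in vascular cells of both tumors, with edgeR adjusted p = 0.0516 and 0.0520.

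*Frem1* was mostly read in matrix cells, and *Hmcn1* in matrix and Trf/Mia-high cells. *Frem1*, a member of the Fraser complex that anchors epidermis to the dermis, had a level of 3.40 and 3.41 in matrix cells, 0.08 and 0.04 in vascular cells, and 0.44 and 0.16 in Trf/Mia-high cells. It was lower in vascular cells by a log2 fold change of -7.78 ± 1.05 (edgeR adjusted p = 0.0203) and higher in matrix than in Trf/Mia-high cells by 6.29 ± 1.03 (edgeR adjusted p = 0.0215). The other genes of that complex, *Fras1* and *Frem2*, were under the filter, with reads in at most 5.81% of vascular or matrix cells of a tumor, in 1 of 8 and 2 of 17 Trf/Mia-high cells for *Fras1* and in 0 of 8 and 4 of 17 for *Frem2*. *Hmcn1*, which encodes hemicentin, a long protein at basement membrane junctions, had a level of 1.81 and 2.36 in matrix cells, 0.85 and 1.77 in Trf/Mia-high cells, and 0.01 and 0.00 in vascular cells. Only 7 and 5 of its reads came from the 500 vascular cells, against 2602 and 4245 from matrix cells. It was lower in vascular than in matrix cells (log2 fold change -10.66 ± 0.56, edgeR adjusted p = 0.00230) and than in Trf/Mia-high cells (-9.11 ± 0.53, edgeR adjusted p = 0.00119) and passed in every alternative fit. Matrix and Trf/Mia-high cells differed by 1.55 ± 0.37 and did not pass (edgeR adjusted p = 0.0563). *Pxdn*, peroxidasin, was read in at least 82.7% of cells in every class and tumor and was at 5.85 and 5.34 in matrix, 5.13 and 4.97 in Trf/Mia-high, and 4.22 and 3.93 in vascular cells, with no call in any comparison (edgeR adjusted p = 0.0671 at the lowest).

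Epithelial markers were read in Trf/Mia-high cells, but few differences in them passed the test. Of 7 such markers 1 was lower in vascular than in Trf/Mia-high cells (*Krt8*, log2 fold change -5.60 ± 1.15, edgeR adjusted p = 0.0352) and none passed between matrix and Trf/Mia-high cells, where 5 had an unadjusted edgeR p under 0.05. The summed RPKM of 7 epithelial markers (*Epcam*, *Cdh1*, *Krt8*, *Krt18*, *Krt19*, *Krt5* and *Krt14*) averaged 1728 and 401 in Trf/Mia-high cells of tumors 1 and 2, and 3.52 to 25.4 in the other classes. Of these markers 6 had reads in Trf/Mia-high cells of each tumor, with *Krt19* at 0 in tumor 1 and *Krt14* at 0 in tumor 2. At least 2 were read in 6 of 8 cells of tumor 1 and in 4 of 17 of tumor 2. The part of these markers in the results for Trf/Mia-high cells was not tested, but the levels of both kinds of cell can be set side by side. In the 10 cells with 2 or more epithelial markers and the 15 without, *Col4a5* was at 5.53 and 4.96, *Col4a6* at 3.48 and 3.64, *Npnt* at 3.54 and 3.15, and *Sgce* at 0.00 in both. *Lamb3* was at 2.31 and 0.00, *Bcam* at 3.48 and 1.84, *Col4a2* at 3.21 and 6.19, and *Lamc1* at 2.96 and 5.43. Both tumors are pooled in these values, and most cells of tumor 1 but few of tumor 2 had the markers, which confounds markers with tumor and plate. In Trf/Mia-high cells of tumors 1 and 2, *Lamb3* was at 2.01 and 0.41, *Bcam* at 4.75 and 1.43, *Col4a2* at 3.68 and 5.62, and *Lamc1* at 2.67 and 5.27. *S100b*, a glial marker, was at 4.91 and 6.57 in Trf/Mia-high cells, above vascular and matrix cells in the test (edgeR adjusted p = 0.00693 and 0.0153). Of the endothelial markers, *Pecam1* and *Cdh5* had no read in vascular cells, *Tie1* was at 0.01 in both tumors and *Emcn* at 2.35 and 3.70.

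Depth and the share of spike-in reads differed between vascular and matrix cells, while the tumors disagreed on the spike-in share of Trf/Mia-high cells. Median reads per cell were 202729 and 191070 in vascular cells, 270388 and 232394 in matrix cells, and 225267 and 239875 in Trf/Mia-high cells. ERCC spike-ins took a median of 14.3% and 12.4% of the reads in vascular cells, 6.37% and 6.23% in matrix cells, and 16.8% and 4.75% in Trf/Mia-high cells. Scaled to the spike-ins, the median of all genes moved to -0.59 between vascular and matrix cells and to -0.62 between vascular and Trf/Mia-high cells, and the median of the 28 genes to -0.92 and 0.20. Of the genes called, 4 of 9 then remained between vascular and matrix cells (*Bcam*, *Lamc3*, *Frem1* and *Hmcn1*), 8 of 14 between vascular and Trf/Mia-high cells (without *Col4a1*, *Col4a2*, *Egflam*, *Hspg2*, *Lamc3* and *Nid2*) and 8 of 12 between matrix and Trf/Mia-high cells (without *Col4a2*, *Col18a1*, *Egflam* and *Lama5*), and none of the genes called on the reads turned its direction. Of all genes 3.48%, 9.04% and 5.5% then passed in these comparisons.

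Genes that work with basement membranes were counted in 3 further lists, in the fit of all 6 libraries only. Of 23 receptors and cytoskeletal linkers 19 were tested, with a median log2 fold change of 0.05 between vascular and matrix cells (0.02 over all genes). Of them 2 were higher and 2 lower, where 1.74% and 3.43% of all genes were. There *Itga7*, a laminin-binding integrin of muscle, was higher in vascular cells at 5.45 ± 0.45 (edgeR adjusted p = 0.00512), as was *Mcam*, also one of the held-out vascular markers, at 3.38 ± 0.29 (edgeR adjusted p = 0.00595), and *Itga3* and *Gpc1* were lower at -3.89 ± 0.74 and -2.63 ± 0.21 (edgeR adjusted p = 0.0480 and 0.00512). Against Trf/Mia-high cells 5 of the 19 were higher and 6 lower in vascular cells, where 7.65% and 4.87% of all genes were, with *Itgb4*, the integrin chain of hemidesmosomes, at -8.08 ± 1.22 (edgeR adjusted p = 0.0152). In matrix cells 5 were higher and 3 lower than in Trf/Mia-high cells, where 7.67% and 2.85% of all genes were, with *Itga6*, its partner chain, at -6.14 ± 1.14 (edgeR adjusted p = 0.0308).

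Of 19 genes for collagen biosynthesis, export and crosslinking, all tested, 2 passed between vascular and matrix cells, 1 in each direction, where 1.74% of all genes passed as higher and 3.43% as lower. They were the collagen prolyl 3-hydroxylases *P3h2*, higher in vascular cells at 3.65 ± 0.47 (edgeR adjusted p = 0.0183), and *P3h1*, lower at -1.14 ± 0.21 (edgeR adjusted p = 0.0426). Between matrix and Trf/Mia-high cells 11 of the 19 were higher and 2 lower, against 7.67% and 2.85% of all genes, with a median of 1.21 against 0.13. *Serpinh1*, the collagen chaperone of the endoplasmic reticulum, was higher in vascular and in matrix cells than in Trf/Mia-high cells, by 1.61 ± 0.22 and 2.28 ± 0.22 (edgeR adjusted p = 0.0112 and 0.00534). Of 16 other matrix proteins found at basement membranes 14 were tested, and none was higher and 5 were lower in vascular than in matrix cells, where 3.43% of all genes were lower. Of the 5, the fibulins *Fbln1* and *Fbln2* are held-out matrix markers already counted above, and *Col8a2* was at -10.47 ± 0.94 (edgeR adjusted p = 0.00662). Against Trf/Mia-high cells 3 were higher and 4 lower in vascular cells, with a median of -0.49, and 4 were higher and none lower in matrix cells, with a median of 1.41, where 7.65% and 4.87%, and 7.67% and 2.85%, of all genes passed. *Smoc1*, *Col8a2* and *Ntn1* were among the 4 lower in vascular cells. *Fn1*, fibronectin, was higher in vascular and in matrix cells than in Trf/Mia-high cells, by 8.08 ± 0.44 and 9.88 ± 0.47 (edgeR adjusted p = 0.00112 and 0.00124).

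Within a class, *Col4a1* and *Col4a2* varied together more than any other pair of basement membrane genes read in at least 50% of its cells. Over the 88 and 86 matrix cells Pearson's r between them was 0.90 in both tumors, against a median of 0.15 and 0.18 over all pairs of 19 genes. Over the vascular cells it was 0.84 and 0.76, against a median of 0.09 and 0.13 over all pairs of 18 genes. The next highest were *Col4a2* with *Lama2* in matrix cells, at 0.55 and 0.51, and *Col4a1* with *Nid1* in vascular cells, at 0.53 and 0.49. These values describe cells that share a library and its depth, and reads in the overlap of *Col4a1* and *Col4a2* may count for either. The correlation of *Col4a1* with a cell's read total was -0.08 and 0.12 in matrix cells and 0.33 and 0.35 in vascular cells.

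Cycling cells, in which at least 4 of 8 mitotic markers had an RPKM of 1 or more, made up 24 and 21 of the vascular cells. *Col4a1* was at 9.80 and 9.70 in them and at 9.50 and 9.74 in the other vascular cells, not in the same order in both tumors. *Nid2* was at 5.75 and 4.59 against 3.83 and 3.88, *Lamb1* at 6.32 and 6.28 against 5.30 and 5.73, and *Col15a1* at 5.70 and 6.01 against 4.82 and 5.34. *Egflam* was lower in cycling cells of both tumors, at 5.53 and 5.36 against 6.20 and 5.89. These differences were not tested. Without cycling cells *Lama1* and *Lama2* no longer passed between vascular and matrix cells, and the other 7 genes did, where 4.84% of all genes passed.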

How the data were processed

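Single fibroblasts of 2 tumors were sequenced by Smart-seq2, 1 plate per tumor. The authors aligned reads to mm10 with STAR and deposited read counts per RefSeq gene and, from the same counts, RPKM values. The counts carry no molecular identifiers or strand, so binomial intervals and the limit of 3 reads cover counting error only. Reads per well used ranged from 10281 to 838772 in tumor 1 and from 10476 to 1190516 in tumor 2. No doublet caller was run, since wells were sorted for 1 cell. The replicate is a tumor, and p-values measure the spread between 2 tumors.

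Wells needed 10000 reads outside the 92 ERCC spike-ins, which 727 of 768 had. A cell joined a class when the mean log2(RPKM + 1) of its panel led the next panel by at least 1 and at least 3 of the 5 markers had a read. Counts were summed per class and tumor into 6 libraries and tested with edgeR 4.0.16 in R 4.3.3 (TMM, quasi-likelihood, Benjamini-Hochberg adjustment) over the 11715 genes whose RPKM averaged 1 or more across cells. The threshold was an adjusted p of 0.05, with 0.001 as an alternative. Other alternatives were DESeq2 1.42.0, other scalings, filters, class rules and a block by tumor. Libraries of 1 tumor share that tumor and so its animal, which pairs them, and their deviations from the class means correlated at 0.15, 0.05 and 0.02. On simulated counts for the vascular and matrix comparison (11715 genes) the test recovered 11 of 100 genes changed 4-fold and 71 of 100 changed 16-fold, and called 4 of 11515 unchanged genes. Python 3.11.15 with numpy 2.4.6, pandas 2.3.3 and scipy 1.17.1 did the rest.

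The basement membrane genes, marker panels and gene lists were chosen with earlier results of these data known. All 34 genes are accounted for, with values per tumor for those with a mean RPKM of at least 10 in some class or called in a comparison. Of each further list at most 3 called genes per direction and comparison, those with the largest log2 fold change, are named.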

Additional observations from a re-analysis of the deposited data

Results flagged for a closer look

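*Lamb3*, a chain of an epithelial laminin that was under the filter and so not tested, stood apart between the tumors. Between matrix and Trf/Mia-high cells the log2 ratio of CPM + 1 (depth-scaled counts, 1 added) was -4.96 in tumor 1 and 1.46 in tumor 2. Matrix and Trf/Mia-high cells had 12 and 89 reads in tumor 1, and 97 and 4 reads in tumor 2. The reads came from 2 and 4 matrix cells and from 3 Trf/Mia-high cells of each tumor, and the difference between the tumors was not tested. Its level was 2.31 in the Trf/Mia-high cells with at least 2 epithelial markers and 0.00 in those without, with the cells of both tumors pooled.

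*Col4a1* was also read in wells that entered no comparison. All 14 wells of tumor 1 and all 14 of tumor 2 that joined no class had a read, 100% in both, with a mean log2(RPKM + 1) of 7.38 and 4.75. Of the wells under the read minimum 81.8% had a read in tumor 1 (9 of 11) and 76.7% in tumor 2 (23 of 30).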

How the results depend on the processing

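With the tumor as a block, 2.48% of genes passed between vascular and matrix cells (with 5 basement membrane genes), 7.65% between vascular and Trf/Mia-high cells and 5.92% between matrix and Trf/Mia-high cells, and the median of the basement membrane genes in the second comparison was 0.79. At an adjusted p of 0.001 in edgeR, 0%, 0.299% and 0.0683% passed, with 0, 2 and 0 basement membrane genes, where 1970, 3342 and 3205 genes had an unadjusted p under 0.05. DESeq2 called 14.4%, 26.8% and 25.4%, with 15 basement membrane genes in the first comparison. Scaling to ERCC totals gave 3.48%, 9.04% and 5.5% of genes, with 4 and 9 basement membrane genes in the first and second comparisons, and medians of -0.92 and 0.20. Leaving out 1 library at a time gave 0.418% to 15.0%, 3.07% to 39.3% and 1.93% to 36.9% of genes, 1 to 13, 8 to 23 and 5 to 20 basement membrane genes, and, tumors left out as well, medians of -0.38 to -0.18, 0.38 to 1.03 and 0.94 to 1.66. The lone library left in a class was assumed to vary like the others, and a whole tumor left out leaves no residual degrees of freedom, so only values are given.

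The following alternatives were chosen after seeing the data, as was leaving out single libraries. Without cells with 2 epithelial markers, 1.62%, 7.24% and 6.02% of genes passed, 3 basement membrane genes in the first comparison, and the second median was 0.91. That fit left out 6 of the 8 Trf/Mia-high cells of tumor 1. Fitting only the vascular and matrix libraries gave 15.5%, and with the block 15.8% and 14 basement membrane genes.

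The second median was 0.63 with DESeq2 size factors and in DESeq2, 0.74 with cells scaled to the same total, 0.89 with classes from *Rgs5*, *Dcn*, *Trf* and *Mia* alone, 0.69 without cycling cells, and 0.65 without wells with an *Epcam* read. It was -0.78 with edgeR's filterByExpr and -0.76 with no gene filter, and the third was 0.13 and 0.14, since all 34 genes then entered. By the median over cells 10 genes, in place of 16, were highest in Trf/Mia-high cells.

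The direction turned for 11 genes in comparisons where they did not pass, and for no called gene. With 1 library or tumor left out, the log2 fold change between vascular and matrix cells ranged from -8.78 to 1.02 for *Col4a6*, -0.38 to 0.26 for *Col15a1*, -0.16 to 0.53 for *Lama4*, -0.77 to 0.064 for *Lamb2* and -0.57 to 5.47 for *Npnt*. Between vascular and Trf/Mia-high cells it ranged from -0.14 to 1.52 for *Lamc1*, -0.20 to 2.38 for *Bcam* and -2.49 to 0.87 for *Frem1*, and between matrix and Trf/Mia-high cells from -0.28 to 0.25 for *Nid2* and -0.95 to 0.014 for *Agrn*. With ERCC totals *Lama4* and *Npnt* turned to -0.47 and -0.20 and *Lamc1* to -0.46, and with cells scaled to the same total *Lama4* to -0.0055 and *Nid2* to 0.47. *Nid2* was at 0.0063 with no gene filter and at 0.068 without *Epcam* wells, and *Pxdn* at -0.10 without cells with 2 epithelial markers. Apart from the medians with all 34 genes, the cause was not tested. The 8 and 17 Trf/Mia-high cells limit every value of that class, and on simulated counts most 4-fold changes were missed.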
